A study of Homo sapiens with 4 samples.

Results

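Notch genes were followed in epithelial colon cancer cells given TGF-β1, through the 26 probe sets, of 54613 on the array, whose only annotated gene symbol belonged to 1 of 10 genes, out of 19775 genes so annotated. These were the ligand genes JAG1, JAG2, DLL1 and DLL4, the receptor genes NOTCH1, NOTCH2 and NOTCH3, the ligand-choice modifier LFNG and the target genes HES1 and HEY1. Each had between 1 and 6 probe sets, a probe set being the group of short probes that reads a transcript. RNA came from LSTGFBR2, a colon cancer line that carries the type II TGF-β receptor gene TGFBR2 under the doxycycline-inducible T-REx system. In the TGF-β1 group (2 arrays) cells received 5 ng/ml human recombinant TGF-β1 for 16 hours, and the untreated group (2 arrays) is labelled as having no treatment. Doxycycline was given from seeding to switch the construct on, but which of the 4 arrays it applied to is not labelled, nor is whether the line is a single clone. Values are RMA signals on the log2 scale, so a difference of 1 is a 2-fold difference.

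Notch signalling passes between touching cells. A ligand of the Jagged or Delta-like type on a cell engages a Notch receptor on its neighbour, which releases the receptor's intracellular part to join the DNA-binding protein RBPJ and switch on repressor genes of the HES and HEY families. In the intestine the pathway maintains crypt progenitors and turns cells away from secretory fates, with HES1 repressing the secretory factor ATOH1. Jagged and Delta-like ligands share the same receptors, and Fringe enzymes such as LFNG add sugars to the receptor that alter which ligand it answers.

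Promoters of the 2 Jagged genes and of HES1 are shown because the Jagged genes moved apart in these cells and HES1 is the target by which the pathway is most often read. Each is the RefSeq sequence (GRCh38.p14) from 250 bases before to 50 bases after the annotated start of the gene, written 5′ to 3′ on the gene's strand. JAG1 lies at chr20:10673950-10674249 on the minus strand, JAG2 at chr14:105168727-105169026 on the minus strand and HES1 at chr3:194135898-194136197 on the plus strand. Capitals mark TGGGAA, the core letters of the RBPJ site, and CAGAC, the letters of the SMAD box bound by the transcription factors of the TGF-β pathway, each on either strand (TTCCCA and GTCTG on the other).
JAG1: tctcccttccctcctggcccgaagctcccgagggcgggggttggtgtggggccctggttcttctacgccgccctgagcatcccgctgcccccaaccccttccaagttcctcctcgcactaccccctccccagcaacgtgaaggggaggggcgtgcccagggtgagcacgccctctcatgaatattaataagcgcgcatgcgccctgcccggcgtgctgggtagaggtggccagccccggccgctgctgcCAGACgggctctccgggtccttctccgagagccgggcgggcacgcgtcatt
JAG2: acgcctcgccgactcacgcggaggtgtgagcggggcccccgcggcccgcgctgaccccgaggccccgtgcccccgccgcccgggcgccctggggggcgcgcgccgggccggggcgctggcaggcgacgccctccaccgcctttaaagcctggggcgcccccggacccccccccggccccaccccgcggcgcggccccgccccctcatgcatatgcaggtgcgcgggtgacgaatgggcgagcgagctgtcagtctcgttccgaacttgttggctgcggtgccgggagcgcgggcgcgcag
HES1: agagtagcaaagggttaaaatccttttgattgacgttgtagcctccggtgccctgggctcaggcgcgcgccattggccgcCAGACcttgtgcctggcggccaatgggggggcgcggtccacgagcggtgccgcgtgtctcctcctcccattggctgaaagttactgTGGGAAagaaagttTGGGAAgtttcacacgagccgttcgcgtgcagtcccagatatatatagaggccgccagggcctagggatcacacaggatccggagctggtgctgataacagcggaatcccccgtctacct

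The HES1 window held 2 copies of TGGGAA, at positions -84 to -79 and -70 to -65 with the first transcribed base at 1, and 1 copy of CAGAC at -170 to -166. The JAG1 window held CAGAC once, from -1 to 4, and no TGGGAA, and the JAG2 window held neither. Of the windows not shown, that of DLL4 held CAGAC once. For LFNG, 1 window held TGGGAA once and CAGAC 2 times, and another held TGGGAA once. Those of NOTCH1, NOTCH2 and NOTCH3 held neither. Among all 35116 promoters of the same length in the table, 24% held TGGGAA, 3.8% held it more than once, and 45.3% held CAGAC. The AP-1 site TGACTCA, searched likewise on both strands, was present in 4.95% of all promoters. It was in none of the 9 member windows searched, which covered 8 of the 10 genes, all but DLL1 and HEY1. These matches describe letters in a window, and nothing was measured about binding.

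The arrays were checked before the Notch genes were read. Of 11 colon epithelial marker genes, all 11 lay above the array medians on every array, with a list mean between 11.30 and 11.38 in TGF-β1 and between 11.33 and 11.42 in untreated arrays. The 10 fibroblast, 9 endothelial and 8 leukocyte markers that could be read averaged 6.16 to 6.21, 5.75 to 5.77 and 6.13 to 6.21 in TGF-β1 arrays. In untreated arrays they averaged 6.37 to 6.47, 5.71 to 5.75 and 6.22 to 6.24. Above the array medians on all 4 arrays were 3 of the fibroblast, 2 of the endothelial and 2 of the leukocyte markers. Neither these nor the epithelial markers had a member at limma adjusted p under 0.05. At an unadjusted limma p under 0.05, 5 passed, named here after their values were seen. CDH1 was higher (log2 fold change 0.56), while CDX2 (-0.73), CDX1 (-0.49), COL3A1 (-1.72) and LUM (-0.60) were lower. At that threshold 7.55% of all genes, by their brightest probe sets, were higher and 7.84% lower. COL3A1 also differed widely between replicates, at 7.38 and 5.83 in TGF-β1 arrays and 9.18 and 7.48 in untreated arrays. Probe set 207334_s_at of TGFBR2 read 14.70 and 14.92 in TGF-β1 arrays, against 9.44 and 9.55 in untreated arrays (39.9-fold, limma adjusted p = 0.000602). Its other probe set, 208944_at, read 10.58 and 10.76 in TGF-β1 arrays, against 10.47 and 10.81 in untreated arrays. The groups compared below thus also differ in that receptor signal, and if doxycycline differed between them, its part and that of TGF-β1 cannot be told apart.

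JAG1 rose by 3.94-fold to 4.80-fold on 3 of its 6 probe sets, and JAG2 fell 1.65-fold on 1 of its 2. Among the 26 Notch probe sets, 3 were higher and 1 was lower in TGF-β1 arrays at limma adjusted p under 0.05 over all probe sets, the 3 being of JAG1 and the 1 of JAG2. Of all probe sets tested, 0.954% passed that threshold, 0.650% higher and 0.304% lower. The Notch genes were chosen with earlier results of these data known, so these shares do not test them as a set. Probe sets of a gene are not independent readings of it, so the 4 calls concern 2 genes. The median log2 fold change was 0.06 over the 26 and -0.01 over all probe sets. At an unadjusted p under 0.05, 8 of the 26 were higher and 4 lower, against 6.34% and 6.87% of all probe sets. The groups did not overlap for 11 probe sets that were higher and 7 that were lower, against 19.2% and 21.6% of all probe sets. JAG1 alone gave 5 of the 8 and 6 of the 11. By the brightest probe set of each of the 10 genes, 3 were higher and 3 lower at an unadjusted limma p under 0.05, against 7.55% and 7.84% of all genes. By that reading the groups did not overlap for 4 genes that were higher and 4 that were lower, against 4232 and 4554 of all 19775 genes.

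**Figure D1:**
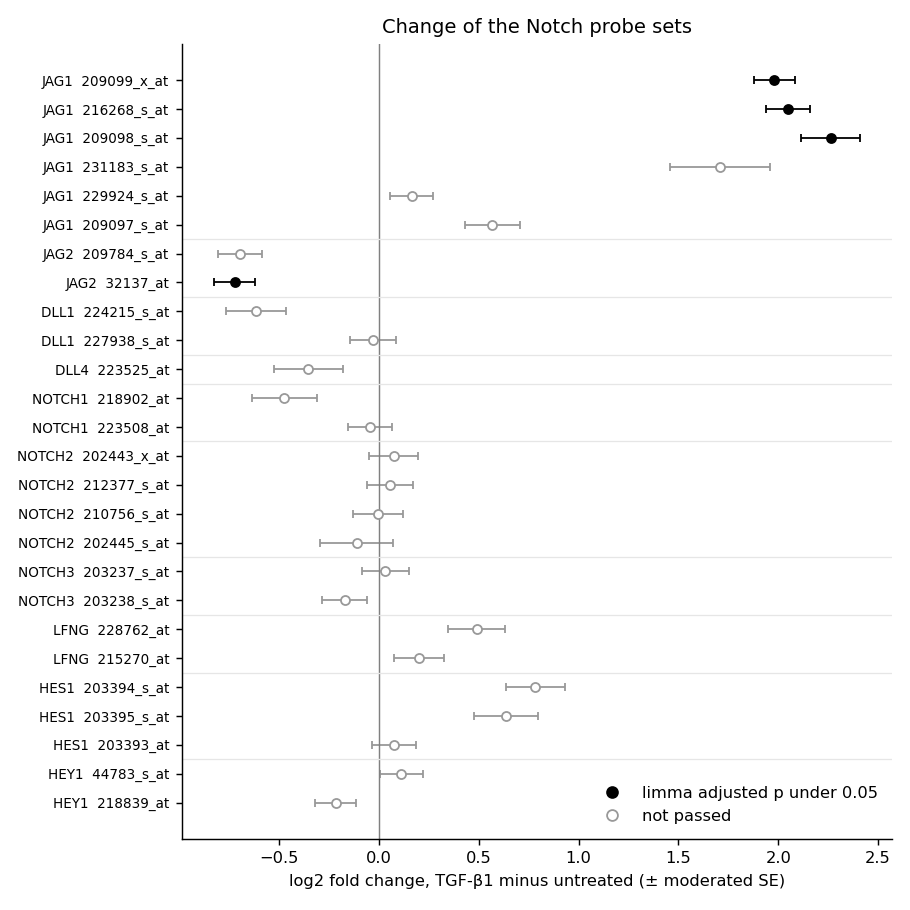
Log2 fold change (TGF-β1 minus untreated) with limma's moderated standard error for each of the 26 probe sets, grouped by gene, filled where the limma adjusted p was under 0.05. Filled points are 3 JAG1 probe sets at 1.98 to 2.26 and 1 JAG2 probe set at -0.72.

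JAG1 encodes Jagged-1, a membrane-bound Notch ligand. Its brightest probe set, 209099_x_at, read 13.30 and 13.28 in TGF-β1 arrays, against 11.33 and 11.29 in untreated arrays. Both TGF-β1 arrays lay well above both untreated arrays, and replicates differed by under 0.1. This was a 3.94-fold rise, or 1.98 ± 0.102 on the log2 scale (SE, n = 2 per group), at limma adjusted p = 0.00463. The suffix _x_at marks a probe set with probes that may match other transcripts. JAG1 has a second bright probe set without that suffix, 216268_s_at, at 13.32 on both TGF-β1 arrays, against 11.35 and 11.19 in untreated arrays. That is a 4.14-fold rise (log2 fold change 2.05 ± 0.110 SE, limma adjusted p = 0.00498).

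The other 4 JAG1 probe sets were dimmer and differed in the size of their change. Probe set 209098_s_at read 11.09 and 10.88 in TGF-β1 arrays, against 8.87 and 8.57 in untreated arrays, a 4.80-fold rise (limma adjusted p = 0.00746). Probe set 231183_s_at read 8.65 and 9.18 in TGF-β1 arrays, against 7.51 and 6.91 in untreated arrays. Its groups did not overlap, but its replicates were the farthest apart of the 6 and it did not pass (log2 fold change 1.71 ± 0.252 SE, limma adjusted p = 0.0514). The array medians lay between 6.57 and 6.61, and the remaining pair, 209097_s_at and 229924_s_at, lay near them. Probe set 209097_s_at read 7.13 and 6.81 in TGF-β1 arrays, against 6.37 and 6.43 in untreated arrays. Probe set 229924_s_at read 6.94 and 6.84 in TGF-β1 arrays, against 6.78 and 6.68 in untreated arrays. Neither of this pair passed (log2 fold changes 0.57 and 0.16). All 6 JAG1 probe sets were thus higher in both TGF-β1 arrays than in both untreated arrays, by amounts between 0.16 and 2.26 on the log2 scale. By the rule of the study's design text (unadjusted limma p under 0.05 and 2-fold or more higher), 4 of the 6 passed, against 0.721% of all probe sets. No probe set of the other 9 genes passed that rule in either direction, and 0.229% of all probe sets passed it as lower.

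JAG2 encodes Jagged-2, the other ligand of the Jagged type. Its brightest probe set, 209784_s_at, read 9.30 and 9.46 in TGF-β1 arrays, against 10.08 and 10.07 in untreated arrays. Probe set 32137_at read 9.34 and 9.39 in TGF-β1 arrays, against 10.07 and 10.10 in untreated arrays. On both probe sets both TGF-β1 arrays lay below both untreated arrays. The log2 fold changes were close, -0.70 ± 0.111 and -0.72 ± 0.102 (SE, n = 2 per group), but they fell on either side of the threshold (limma adjusted p = 0.0599 and 0.0459).

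**Figure D2:**
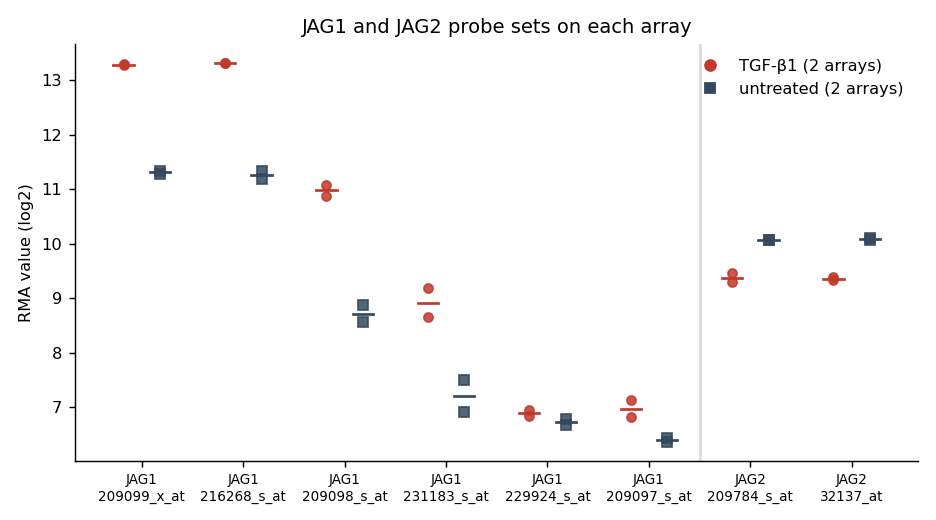
RMA value (log2) of each JAG1 and JAG2 probe set on each array, with TGF-β1 arrays as circles left of untreated arrays as squares and bars at the group means. All 6 JAG1 probe sets are higher in TGF-β1 arrays, the 2 dimmest by under 0.6, and both JAG2 probe sets are lower.

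The change of JAG1 was set against that of JAG2 directly. By their brightest probe sets the log2 fold changes differed by 2.68 ± 0.121 (SE, n = 2 per group). In limma fitted to the differences between JAG1 and every other probe set the JAG2 comparison had an adjusted p of 2.91e-06. In that fit 99.8% of all probe sets differed from JAG1, so the call is not particular to JAG2, and its rows share the values of JAG1. The exact two-sided permutation test of the 4 per-array differences gave p = 0.333, the smallest that 6 splits allow. Over the 12 pairs of a JAG1 with a JAG2 probe set the difference was between 0.86 and 2.99, above 0 in all 12. That sign was already fixed, since every JAG1 probe set was higher and both JAG2 probe sets were lower, so the pairs show only the range.

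Neither Delta-like ligand passed the test. DLL1 and DLL4 encode Delta-like ligands 1 and 4, which activate Notch in intestinal crypts of mice. The brighter DLL1 probe set, 224215_s_at, read 9.28 and 8.93 in TGF-β1 arrays, against 9.80 and 9.65 in untreated arrays. Its groups did not overlap (log2 fold change -0.62 ± 0.149 SE, limma adjusted p = 0.149). The other DLL1 probe set, 227938_s_at, lay near the array medians, at 6.30 and 6.50 in TGF-β1 arrays and 6.45 and 6.41 in untreated arrays, with overlapping groups. DLL4, by its only probe set, read 7.01 and 7.49 in TGF-β1 arrays, against 7.62 and 7.59 in untreated arrays. Both TGF-β1 arrays were lower, but they differed from each other by more than the second of them differed from the untreated arrays (log2 fold change -0.35 ± 0.172 SE, limma adjusted p = 0.478).

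The receptor genes showed no call. NOTCH1, which encodes a receptor of intestinal crypt cells, read 9.84 and 10.19 in TGF-β1 arrays by 218902_at, against 10.35 and 10.62 in untreated arrays. The groups did not overlap, by a gap narrower than the spread between replicates (log2 fold change -0.47 ± 0.164 SE, limma adjusted p = 0.293). Its other probe set, 223508_at, read 6.45 and 6.59 in TGF-β1 arrays, against 6.53 and 6.60 in untreated arrays.

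NOTCH2 had 4 probe sets, and their groups overlapped on each. The brightest, 202443_x_at, read 11.30 and 11.55 in TGF-β1 arrays, against 11.36 and 11.34 in untreated arrays. Its log2 fold change was 0.07, with a 95% interval from -0.23 to 0.38, and the others were between -0.11 and 0.05. The sign of 210756_s_at, at -0.006, turned with either centring of the arrays. NOTCH2 has near-identical NOTCH2NL copies in the genome, whose transcripts such probe sets may also read.

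NOTCH3 read 7.06 and 6.93 in TGF-β1 arrays by 203237_s_at, against 6.88 and 7.04 in untreated arrays, with overlapping groups (log2 fold change 0.03, 95% interval -0.25 to 0.32). Its other probe set, 203238_s_at, was below the array medians on all 4 arrays, at 5.98 and 5.83 in TGF-β1 arrays and 6.03 and 6.12 in untreated arrays, a separation smaller than the replicate spread. RMA gives no detection call, so whether such levels were above background is not known.

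**Figure D3:**
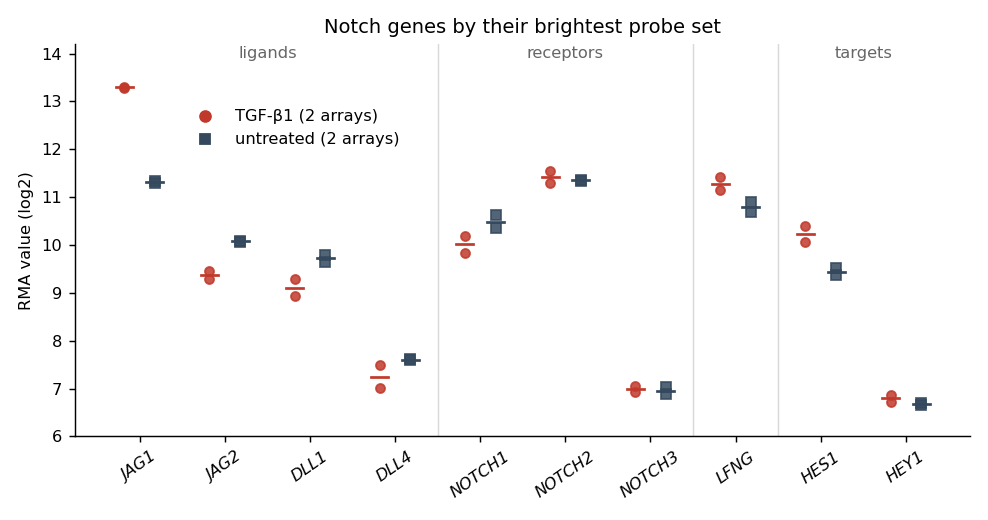
RMA value (log2) of the brightest probe set of each of the 10 genes on each array, with TGF-β1 arrays as circles left of untreated arrays as squares and bars at the group means. JAG1 shows the widest separation, at 13.3 against 11.3, while the groups of NOTCH2 and NOTCH3 overlap.

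LFNG, the Lunatic Fringe glycosyltransferase that modifies Notch receptors, was higher in both TGF-β1 arrays on both of its probe sets without passing. By 228762_at it read 11.14 and 11.42 in TGF-β1 arrays, against 10.69 and 10.90 in untreated arrays (log2 fold change 0.49 ± 0.143 SE, limma adjusted p = 0.217). By 215270_at it read 7.34 and 7.51 in TGF-β1 arrays, against 7.13 and 7.32 in untreated arrays, where the groups were separated by less than 0.1.

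The target genes were read next. HES1 encodes a transcriptional repressor induced by activated Notch, and it also answers other pathways. By its brightest probe set, 203394_s_at, it read 10.40 and 10.06 in TGF-β1 arrays, against 9.37 and 9.52 in untreated arrays. By 203395_s_at it read 10.05 and 9.68 in TGF-β1 arrays, against 9.34 and 9.12 in untreated arrays. On both, TGF-β1 replicate 1 was the highest array and the groups did not overlap. The log2 fold changes were 0.78 ± 0.148 and 0.64 ± 0.160 (SE, n = 2 per group), 1.72-fold and 1.55-fold, and neither passed over all probe sets (limma adjusted p = 0.0838 and 0.159). With 1 probe set per gene fitted alone, where 3.34% of 19775 genes passed, HES1 passed (limma adjusted p = 0.0464), and with its probe sets averaged it did not (0.0634). The third HES1 probe set, 203393_at, lay at the array medians, at 6.54 and 6.64 in TGF-β1 arrays and 6.46 and 6.57 in untreated arrays.

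HEY1, a repressor of the related HEY family, lay near the array medians on both of its probe sets, which went opposite ways. By 44783_s_at it read 6.73 and 6.87 in TGF-β1 arrays, against 6.71 and 6.66 in untreated arrays. By 218839_at it read 6.64 and 6.58 in TGF-β1 arrays, against 6.82 and 6.83 in untreated arrays. Neither passed (log2 fold changes 0.11 ± 0.110 and -0.22 ± 0.102 SE, limma adjusted p = 0.787 and 0.461). No direction can be given for HEY1 from these arrays.

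Low signal is a limit for several members. Of the 26 probe sets, 10 had a mean log2 value under 7 over the 4 arrays and 0 of these passed by limma, against 4 of the other 16. On the whole array 0.264% of probe sets with a mean under 7 passed and 1.86% of the brighter ones, so 0 of 10 is not set apart. The 10 include both HEY1, both NOTCH3 and 2 of the 6 JAG1 probe sets. The part of low signal in their results was not tested.

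The rest of the pathway was read from a list of 85 genes, 78 of which could be named by a probe set, each by its brightest. Of the 78, 2 rose, 2 fell and 74 did not pass, while 1.43% of all 19775 genes passed by their brightest probe sets in the same fit (0.941% higher and 0.485% lower). The list was drawn up with earlier results of these data known, so these shares do not test it. The list's median log2 fold change was -0.029 and that of all genes -0.004. The calls lay in 2 of the 9 classes of the list. None of the 5 further ligands, the receptor NOTCH4, the 6 glycosyltransferases, the 16 trafficking genes, the 10 members of the transcription complex, the 11 corepressors or the 7 further HES and HEY genes passed by limma. At an unadjusted p under 0.05 these classes had 4 members that were higher among the trafficking genes, 1 higher among the corepressors, and 5 that were lower elsewhere. Of all genes by their brightest probe sets, 7.55% were higher and 7.84% lower at that threshold. The 7 further HES and HEY genes had log2 fold changes from -0.41 to -0.02, with 2 lower at that threshold, named here after their values were seen. HES6 read 10.86 and 10.95 in TGF-β1 arrays, against 11.31 on both untreated arrays (limma adjusted p = 0.161). HEYL (log2 fold change -0.30) lay below the array medians on all 4 arrays.

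Of the 8 receptor-cleavage genes, FURIN rose. It encodes the protease that cuts Notch receptors on their way to the surface, and many other proteins including TGF-β precursors. It read 9.55 and 9.58 in TGF-β1 arrays, against 8.52 and 8.80 in untreated arrays, a 1.87-fold rise (limma adjusted p = 0.0478). Both ADAM proteases and the γ-secretase genes measured, which carry out the later cuts, had log2 fold changes between -0.07 and 0.21. Among uncalled genes with the largest change were NEURL1B, a ubiquitin ligase of Notch ligands (log2 fold change 0.70, limma adjusted p = 0.114), and NUMB, which restrains Notch receptors (0.66, limma adjusted p = 0.168). NEURL1B read 11.27 and 11.56 in TGF-β1 arrays, against 10.58 and 10.84 in untreated arrays. NUMB read 6.31 and 6.71 in TGF-β1 arrays, against 5.71 and 5.98 in untreated arrays. Its signal was low, above the array medians only on the second TGF-β1 array.

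Of 14 further target and intestinal output genes, CDKN1A rose and MYC and ASCL2 fell. All 3 are controlled by several pathways besides Notch. CDKN1A, the gene of the kinase inhibitor p21, read 12.66 and 12.56 in TGF-β1 arrays, against 10.85 and 10.56 in untreated arrays (limma adjusted p = 0.00799). MYC read 10.55 and 10.42 in TGF-β1 arrays, against 12.14 and 11.99 in untreated arrays (limma adjusted p = 0.00943). ASCL2, a transcription factor of intestinal stem cells, read 10.73 and 11.02 in TGF-β1 arrays, against 12.05 and 12.02 in untreated arrays (limma adjusted p = 0.0272). NEUROG3, which specifies endocrine cells, read 5.72 and 6.08 in TGF-β1 arrays, against 6.26 and 6.83 in untreated arrays (limma adjusted p = 0.281). Its signal was also low, above the array medians only on the second untreated array. ATOH1 is named here, after its values were seen, because HES1 represses it. It read 6.45 and 6.81 in TGF-β1 arrays, against 7.30 and 7.21 in untreated arrays (log2 fold change -0.62, limma adjusted p = 0.143). Its signal was low too, below the array median on the first TGF-β1 array. Of the other intestinal output genes, SPDEF (log2 fold change 0.15) and GFI1 (-0.03), also named after their values were seen, had overlapping groups. NRARP, a Notch-induced feedback inhibitor likewise named after its values were seen, read 11.39 and 11.36 in TGF-β1 arrays, against 11.59 and 11.69 in untreated arrays (limma adjusted p = 0.366).

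**Figure D4:**
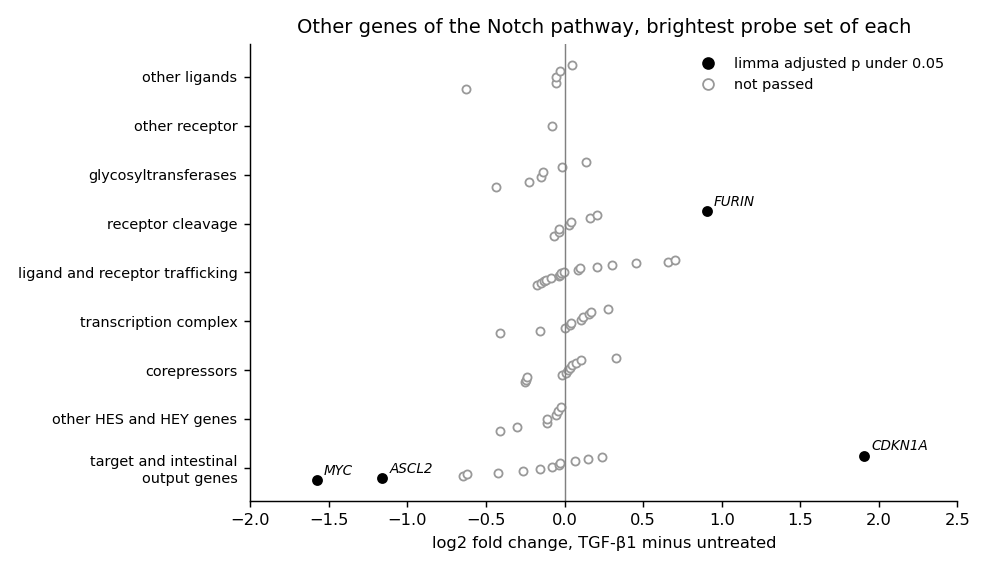
Log2 fold change (TGF-β1 minus untreated) of 78 further Notch pathway genes by their brightest probe sets, in 9 classes, with small vertical offsets for legibility only. Filled points with names are the 4 genes at limma adjusted p under 0.05: FURIN and CDKN1A above 0, ASCL2 and MYC below 0.

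The genes whose values most resembled those of JAG1 were sought over the 4 arrays, after subtracting each gene's untreated mean, by Euclidean distance between brightest probe sets among 19774 genes. The nearest were ITGB5, which encodes integrin β5 (distance 0.107), CDKN1A (0.207) and FSTL3, which encodes a secreted activin-binding protein (0.210). ITGB5 read 12.16 and 12.27 in TGF-β1 arrays, against 10.23 and 10.25 in untreated arrays. With 4 arrays in 2 groups, this ranking mostly finds genes with a change of the same size and little spread.

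Calls on the whole array depend on having all 4 arrays. With any 1 left out, 0 to 26 of all 54613 probe sets passed by limma and 0 of the 26 Notch ones. At an unadjusted p under 0.05, 4895 to 6113 of all and 10 to 12 of the Notch probe sets passed. JAG1 by 209099_x_at kept log2 fold changes of 1.96 to 2.00, with limma adjusted p = 0.0631 without TGF-β1 replicate 1, 0.0524 without TGF-β1 replicate 2, 0.0967 without untreated replicate 1 and 0.0798 without untreated replicate 2. JAG2 by 32137_at kept -0.75 to -0.70, with limma adjusted p from 0.189 to 0.312. The pathway calls were lost in the same way, with 0 of the 78 genes passing by limma and 12 to 14 at an unadjusted p under 0.05.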

How the data were processed

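Total RNA of 4 samples was labelled with biotin and hybridised to 1-colour HG-U133 Plus 2.0 arrays. Groups and replicate numbers came from the sample titles. The authors deposited 1 log2 value per probe set and array, made by RMA (background correction, quantile normalization, summarization) per the series' design text and the submitters' processing notes. The scale was judged from the values (2.48 to 15.34). RMA was run with software not given in the sources used here. Quantile normalization gives all arrays the same distribution of probe signals before summarization and so hides a shift of most transcripts. RMA also compresses low values. In bulk RNA, fewer cells of a type and less RNA per cell cannot be told apart.

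The 62 array controls were left out. Of 54675 probe sets, 41097 had 1 symbol in the platform annotation, 1801 had several and 11777 had none. Symbols were updated by Entrez ID against RefSeq (GRCh38.p14). limma 3.58.1 under R 4.3.3 (lmFit, then eBayes with no trend, two-sided, 5.97 total degrees of freedom) was fitted to all 54613 probe sets with Benjamini-Hochberg adjustment over all of them, and a probe set was called under 0.05. Alternatives were filters on mean log2 (5 or 7), an intensity trend, centring of arrays on their medians or on 6 housekeeping genes with a single-symbol probe set, 1 or averaged probe sets per gene, a replicate block, leaving out each array, and the rule of the series' design text. The number of arrays limits the precision. Nothing says that replicates came from separate cultures, so p-values reflect only how far these arrays differ, which may be technical.

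The members and gene lists were chosen with earlier results of these data known. Named are all member probe sets, TGFBR2, the called genes of the pathway list (up to 10), its 3 uncalled genes with the largest change, and the 3 genes nearest to JAG1 by Euclidean distance. Any other gene is said to be chosen after its values were seen.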

Additional observations from a re-analysis of the deposited data

How the results depend on the processing

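With all arrays, 4 of the 26 Notch probe sets and 521 of all 54613 were called. The Notch count was 5 under a mean log2 of at least 5 (595 of 42357 in all), an intensity trend (697) and centring on medians (652) or housekeeping genes (639). Under a mean of at least 7 it was 6 of the 16 left, with 966 of 23578 in all. By gene, 3 of 10 were called with the brightest probe sets (660 of 19775; JAG2 at limma adjusted p = 0.0303) and 2 of 10, JAG1 and JAG2, with averaged ones (670). With 1 array left out, 0 of the 26, 0 of the pathway genes and 0 to 26 of all probe sets passed by limma (4895 to 6113 of all probe sets, and 12 to 14 pathway genes, at an unadjusted p under 0.05). Those fits assume that the lone array of a group varies like the others and leave 1 residual degree of freedom. The JAG1 minus JAG2 difference was 2.59 to 2.77 with 1 array left out and 2.16 with averaged probe sets.

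Deviations from the group means of same-numbered arrays correlated at 0.224 over probe sets. Some listed genes, named after their values were seen, moved with replicate number in both groups. OLFM4 read 5.69 and 8.34 in TGF-β1 arrays, against 6.34 and 8.53 in untreated arrays. KRT20 read 8.16 and 6.74 in TGF-β1 arrays, against 8.78 and 7.30 in untreated arrays, and COL3A1 also fell from replicate 1 to replicate 2 in both. The labels do not say that a number marks a shared culture or day, and 2 pairs cannot settle it. With the replicate block 88 probe sets, 3 of the Notch ones (all JAG1, each at limma adjusted p = 0.0413) and 2 pathway genes (CDKN1A and MYC) were called by limma. Not called with it were JAG2 (adjusted p = 0.0926 by 32137_at and 0.108 by 209784_s_at), FURIN (0.0908) and ASCL2 (0.0765).

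Over the probe set fits 7 of the 26 turned sign in some setting, 4 of NOTCH2 and 1 each of DLL1, NOTCH1 and NOTCH3, none of them called. Of the brightest probe sets, NOTCH2 was at -0.051 without TGF-β1 replicate 2, in a range up to 0.198 over the arrays left out. NOTCH3 was at -0.0334 without TGF-β1 replicate 1 and -0.0464 without untreated replicate 1, in a range up to 0.11, and at -0.0699 with averaged probe sets. The HEY1 gene value was -0.0522 with averaged probe sets. The cause was not tested.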

Other observations

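Further probe sets of Notch ligand and receptor genes outside the 10 were read, each chosen after its values were seen. DLL3, a Delta-like protein that in mammals does not activate Notch on neighbouring cells, had 4 probe sets that differed among themselves. By 219537_x_at it read 7.06 and 7.22 in TGF-β1 arrays, against 7.97 and 7.56 in untreated arrays (log2 fold change -0.63, limma adjusted p = 0.167). Its other 3 probe sets, 222898_s_at, 229755_x_at and 230568_x_at, had overlapping groups, with log2 fold changes of 0.09, 0.02 and -0.14. NOTCH4, a receptor best known from blood vessels, read 7.21 and 7.29 in TGF-β1 arrays by 205247_at, against 7.24 and 7.41 in untreated arrays. By 240786_at it read 6.04 and 5.89 in TGF-β1 arrays, against 6.14 and 6.25 in untreated arrays, with no overlap (log2 fold change -0.23, limma adjusted p = 0.495).

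Probe set 227067_x_at is annotated to NOTCH2 together with 4 NOTCH2NL copies and was left out of the counts for that reason. It read 8.24 and 8.30 in TGF-β1 arrays, against 8.21 and 8.30 in untreated arrays, with overlapping groups (log2 fold change 0.01 ± 0.106 SE, limma adjusted p = 0.992). NOTCH2NLA by 214722_at read 7.75 and 7.80 in TGF-β1 arrays, against 7.68 and 7.81 in untreated arrays.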
